A study of Mus musculus with 13 samples.

Results

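Clustered histone genes encode the bulk of the histones that package newly copied DNA: the core histones H2A, H2B, H3 and H4, which form the nucleosome, and the linker histone H1, which binds where DNA enters and leaves it. They lie side by side in a few genomic clusters, lack introns in most cases and are transcribed mainly during S phase. Their messages usually end just after a conserved stem-loop, which is bound by stem-loop binding protein and takes the place of a poly(A) tail, so a library built from polyadenylated RNA misses most of them and catches the minority that are cleaved and polyadenylated further downstream.

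The members were every gene of the deposited table whose symbol begins with HIST1H, HIST2H, HIST3H or HIST4H. There were 68 of 24170 genes: 6 for H1, 18 for H2A, 19 for H2B, 12 for H3 and 13 for H4. The Hist1 cluster on mouse chromosome 13 held 54 of them, the Hist2 cluster on chromosome 3 held 10, the Hist3 cluster on chromosome 11 held 3, and Hist4h4 stood alone on chromosome 6.

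RNA came from orthotopic 4T1 tumors, raised by implanting a mouse mammary carcinoma line into the fat pad of female BALB/c mice, the strain in which the line arose. Mice were given cyclophosphamide (CPA), a DNA-alkylating prodrug activated in the liver, by intraperitoneal injection at 130 mg/kg, per the labels, every 6 days (a metronomic schedule), or PBS vehicle. The library table of the study lists a slightly higher dose, and the sources thus disagree on it. The groups were vehicle (3 libraries, mice aged 10 to 11 weeks), 2 CPA cycles (3 libraries, 10 to 11 weeks), 4 cycles (3 libraries, 12 to 13 weeks), 7 cycles (2 libraries, 14 to 15 weeks) and regrowth, in which dosing stopped after 4 cycles and tumors were taken 18 days later (2 libraries, 14 to 15 weeks). A library represents a pool of 2 to 3 tumors rather than an animal. Vehicle tumors were matched in age only with the 2-cycle group, and regrowth only with the 7-cycle group, so that CPA exposure and age cannot be told apart in the other comparisons.

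Levels are FPKM, fragments scaled to the length of the gene model and to the number of mapped fragments, as 1 value for each gene and group. With 1 value per group there is no spread between libraries, so no SD, n or p stands beside any value, and every difference below describes the authors' group values. A gene entered the comparisons when its mean over the 5 groups was at least 1 FPKM, and it was called higher or lower past a 2-fold ratio after 0.1 was added to each FPKM. The tissue label was checked against mammary epithelial markers: the keratin Krt8 was at 267, 262, 295, 348 and 331 FPKM, and the adhesion protein Epcam at 72.6, 55.2, 81.1, 129 and 148 FPKM, in vehicle, 2-cycle, 4-cycle, 7-cycle and regrowth tumors.

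Because the signal at the 3′ end decides which of these messages a poly(A) library can hold, the stem-loops are shown first. In the GENCODE M21 annotation of GRCm38, whose sequences were searched on the transcript strand for the arms GGNNCT and AGNNCC, 6 bases each, pairing fully around a loop of 4 (NTNN), all 68 members were found by symbol. A stem-loop lay after the stop codon in 44 of the 68. Of the 24 without, 13 have a model that stops at the stop codon and 1 has no coding part, so their models could not show it. The other 10 have annotated bases after the stop codon but no match there. Among these, Hist1h2ah with 2 bases and Hist1h2af with 1 have too few to hold a stem-loop. Over the whole annotation, 0.166% of 55341 genes held a match in a transcript. The 44 matches took 6 forms, and 1 member of each form is shown with its arms in capitals and the loop and flanks in lower case:
Hist1h1c: ccaaaaGGCTCTtttcAGAGCCaccactcc
Hist1h3c: aaaaaaGGCTCTtttaAGAGCCacctaaga
Hist2h2ac: caaaaaGGCTCTttttAGAGCCaccaaatc
Hist1h4h: accaaaGGCCCTtttcAGGGCCgcccacat
Hist1h4i: cttaaaGGCCCTttttAGGGCCaccacaaa
Hist1h4j: cctaaaGGTCCTtttcAGGACCaccacatc

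These 30-base stretches lie, in GRCm38 coordinates, at chr13:23739506-23739535 on the plus strand (Hist1h1c, a linker histone), chr13:23745039-23745068 on the minus strand (Hist1h3c), chr3:96220410-96220439 on the minus strand (Hist2h2ac), chr13:23531452-23531481 on the plus strand (Hist1h4h), chr13:22040958-22040987 on the minus strand (Hist1h4i) and chr13:21735431-21735460 on the plus strand (Hist1h4j). The arms sorted by histone class. All 11 H4 genes with a match had the arm GGCCCT (9 genes) or GGTCCT (2 genes), while the arm GGCTCT was shared by all 4 H1, 11 H2A, 10 H2B and 8 H3 genes with a match. The stem-loop Hist1h1c carries was the commonest form, in 26 genes, and the Hist2h2ac form occurred in 1.

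Most members were barely detected. The median of the mean FPKM was 0.166 over the 68 members, against 0.698 over all genes, and 58 of the 68 lay below the median gene. Only 7 of the 68 members (10.3%) reached a mean of 1 FPKM, whereas 47.3% of all genes did. These were Hist1h1c for H1, Hist3h2a for H2A, Hist1h2bc and Hist2h2bb for H2B, and Hist1h4i, Hist1h4h and Hist1h4k for H4, and no H3 gene was among them. A further 16 members had means of 0.3 to 1 FPKM and 45 had lower means. The testis histone genes Hist1h2ba and Hist1h2aa were listed at 0 in all 5 groups, and another 10 members were listed at 0 in some. Hist1h2bg was the only member with a mean below 1 FPKM to pass 1 FPKM in a group, at 1.05 FPKM after 2 cycles.

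The annotated stretch past the stem-loop was compared with level as a description, since the 2 come from an annotation and from bulk values. The stretch is from GENCODE, whereas FPKM was counted on mm9 models. Hist1h1c, Hist3h2a, Hist1h2ac and Hist4h4 span 726, 509, 488 and 440 bases in mm9. Their GENCODE transcripts have 1560, 2146, 2482 and 2863 bases, so that much of each was not measured. The stretch ran from 3 to 4884 bases. Of the 22 members with at least 100 annotated bases beyond the stem-loop, 12 had a mean of at least 0.3 FPKM and the median was 0.400 FPKM. Of the 22 with fewer than 100, 3 had a mean of at least 0.3 FPKM and the median was 0.105 FPKM. A long annotated stretch did not always go with a high measured level. Hist1h1c had 840 bases beyond the stem-loop and a mean of 18.4 FPKM and Hist3h2a had 1643 and 8.06 FPKM, but Hist1h2ac had 2010 and 0.151 FPKM and Hist4h4 had 2445 and 0.307 FPKM. Hist1h4h, in contrast, had 46 bases and 1.97 FPKM, the highest mean of those with fewer than 100. The most abundant member without a match was Hist1h2bc, at 10.6 FPKM, whose GENCODE transcript has 2 exons and 742 bases after the stop codon with no stem-loop in them.

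**Figure D1:**
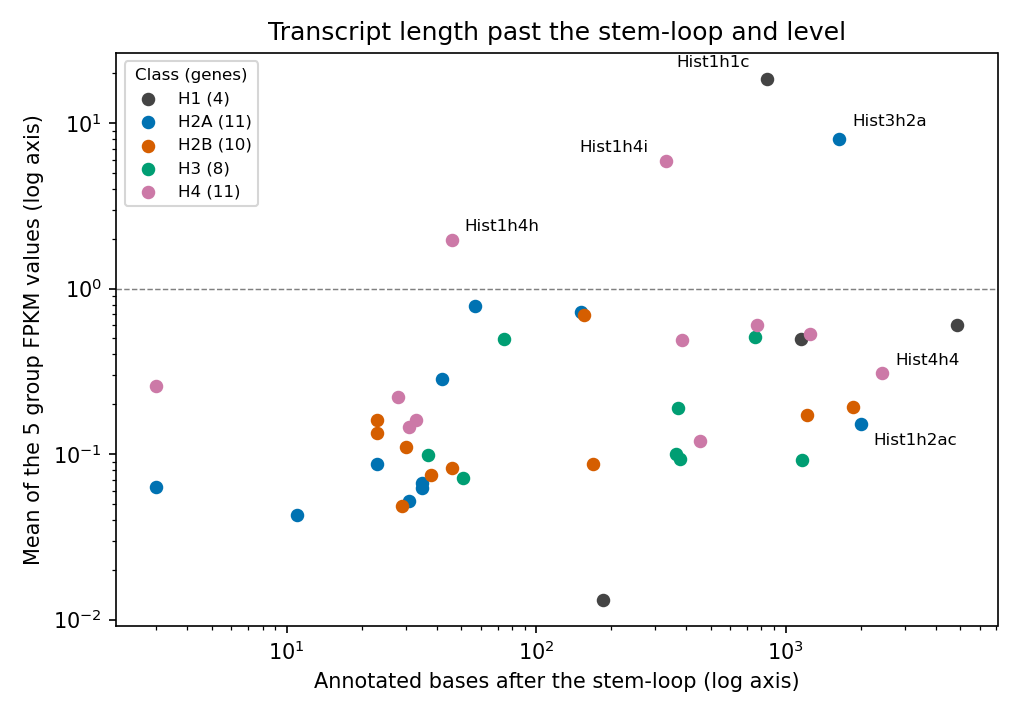
Mean of the 5 group FPKM values (vertical log axis) against the annotated bases that follow the stem-loop (horizontal log axis) for the 44 members with a stem-loop, colored by histone class, with a dashed line at 1 FPKM. Hist1h1c, Hist3h2a and Hist1h4i lie high with 840, 1643 and 330 bases, Hist1h4h lies high with 46, and Hist1h2ac and Hist4h4 lie low with 2010 and 2445. FPKM was counted on mm9 models, which can leave out much of the annotated stretch.

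The 7 members with a mean of at least 1 FPKM followed much the same course. All 7 lay above vehicle after 2 and 4 cycles, and 6 of 7, all but Hist2h2bb, after 7 cycles. The highest value came after 4 cycles in 6 of 7, and the level was back toward or below that of vehicle in regrowth. Of all 11438 genes with such a mean, 14.1% had their highest value after 4 cycles. Hist2h2bb was highest after 2 cycles, where 23.9% of all genes were highest, and none of the 7 was highest in vehicle, 7-cycle or regrowth tumors. In bulk tumor RNA, a lower level from fewer cells of a type and one from less RNA per cell cannot be told apart.

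Hist1h1c, which encodes the linker histone H1.2, was the most abundant member in every group (chr13:23830675-23831400, mm9). It stood at 16.2 FPKM in vehicle tumors, 19.7 after 2 cycles, 21.6 after 4 cycles, 20.0 after 7 cycles and 14.8 in regrowth. The 3 groups under treatment lay above vehicle and regrowth, although the log2 differences from vehicle were small, at 0.28, 0.42 and 0.30 after 2, 4 and 7 cycles. Hist3h2a, an H2A gene of the small Hist3 cluster (chr11:58768186-58768694, mm9), behaved alike on a lower level, at 7.03, 8.52, 9.60, 8.27 and 6.86 FPKM in vehicle, 2-cycle, 4-cycle, 7-cycle and regrowth tumors.

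Hist1h2bc, an H2B gene (chr13:23776067-23784349, mm9, over 2 mapping intervals), stood at 7.45 FPKM in vehicle tumors, 13.8 after 2 cycles, 14.5 after 4 cycles, 11.2 after 7 cycles and 6.21 in regrowth. It was the most variable of the abundant members in absolute terms, and its log2 difference over vehicle, 0.88 after 2 cycles and 0.96 after 4, stayed just inside the 2-fold limit. Hist1h4i, an H4 gene (chr13:22132828-22133231, mm9), stood at 4.15, 7.24, 7.83, 6.09 and 4.35 FPKM in the same order of groups, with log2 differences over vehicle of 0.79 and 0.90 after 2 and 4 cycles.

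Hist1h4h, another H4 gene (chr13:23622912-23623347, mm9), showed the widest differences over vehicle. It stood at 0.823 FPKM in vehicle tumors, 2.23 after 2 cycles, 2.99 after 4 cycles, 2.52 after 7 cycles and 1.29 in regrowth. Every CPA group, regrowth included, lay above vehicle. The remaining H4 gene of the 7, Hist1h4k (chr13:21842013-21842422, mm9), was lower, at 1.02, 1.37, 1.60, 1.18 and 0.729 FPKM. Hist2h2bb, an H2B gene of the Hist2 cluster (chr3:96073622-96074115, mm9), differed from the rest in peaking earlier, at 1.05, 1.78, 1.48, 0.981 and 0.557 FPKM in the same order, and its regrowth value was the lowest of its 5.

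**Figure D2:**
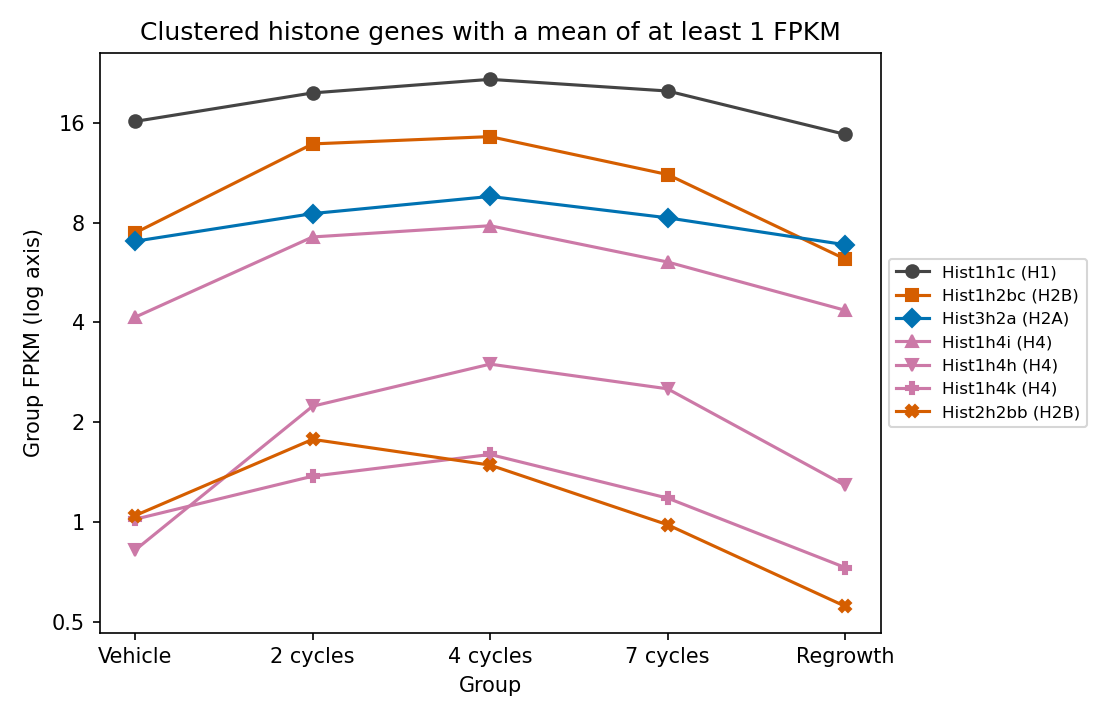
Group FPKM (vertical log axis) of the 7 members with a mean of at least 1 FPKM in vehicle, 2-cycle, 4-cycle, 7-cycle and regrowth tumors, with 1 point per group, no error bars since each group has 1 value, and colors by class. Lines reach their highest point after 4 cycles for 6 genes and after 2 cycles for Hist2h2bb, and Hist1h4h climbs most, with 0.823 FPKM in vehicle and 2.99 after 4 cycles.

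After 2 CPA cycles, compared with vehicle tumors of the same age, all 7 members were higher, by 0.27 to 1.34 on the log2 scale, and the median was 0.71, against 0.04 over all 11438 genes. Of those genes, 57.3% lay above 0. Only Hist1h4h was called higher, at a log2 ratio of 1.34, that is 1 of 7, beside a background of 2.89% of all genes called higher. No member was called lower (0.647% of all genes). After 4 cycles the median was 0.60, against 0.06 over all genes. Hist1h4h was again the only one of 7 called, at 1.75 (background 3.3% higher and 1.36% lower). After 7 cycles the median was 0.30, against 0.00, with 6 of 7 members above 0. Hist1h4h was called at 1.51 (background 3.87% higher and 2.6% lower), and Hist2h2bb, at -0.08, was level with vehicle. With a pseudocount of 1 in place of 0.1, Hist1h4h came to 0.83 after 2 cycles and 0.95 after 7, and no member was then called there.

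In regrowth compared with vehicle, 0 of 7 members were called in either direction (background 1.54% higher and 2.09% lower). Their median was -0.13, against -0.01 over all genes, and the extremes were Hist1h4h at 0.59 and Hist2h2bb at -0.80. These 4 comparisons share the vehicle value, so that a low or high vehicle value would shift all of them together.

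Regrowth compared with 4 cycles gave the clearest contrast. All 7 members were lower in regrowth, by 0.48 to 1.27 on the log2 scale, with a median of -1.03, against -0.06 over all genes, 43.4% of which lay above 0. Of the 7, 4 were called lower: Hist2h2bb at -1.27, Hist1h2bc at -1.21, Hist1h4h at -1.16 and Hist1h4k at -1.03. The background was 4.03% of all genes called lower and 0.831% called higher. Hist1h2bc, with 6.21 FPKM in regrowth against 14.5 after 4 cycles, kept its call with a pseudocount of 1, whereas Hist2h2bb, Hist1h4h and Hist1h4k did not. Hist1h4k also lost it, at -0.98, when log2 ratios were centred on the median gene. Regrowth mice were also older, at 14 to 15 weeks against 12 to 13 weeks.

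Compared with 7-cycle tumors of the same age, regrowth was lower in 7 of 7 members, with a median of -0.63, against -0.01 over all genes. The regrowth value, from 2 libraries, is the same one as in the comparison with 4 cycles, so that the direction in both could come from it alone. None passed 2-fold (background 2.4% lower and 0.673% higher), and Hist1h4h at -0.92 and Hist1h2bc at -0.84 came closest. Between 7 and 2 cycles the members differed little in level, with a median of -0.20 and 0 of 7 called (background 1.73% higher and 2.76% lower). Hist2h2bb was lowest at -0.79 and Hist1h4h highest at 0.17.

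The members with means of 0.3 to 1 FPKM did not share 1 course. Of these 16, 6 were highest in regrowth, 3 each after 2, 4 and 7 cycles, and 1, Hist2h2be, in vehicle. Of all 1886 genes with such means, 17.7% were highest in regrowth, 25.2%, 13.0% and 20.3% after 2, 4 and 7 cycles, and 23.8% in vehicle. Hist1h4d, an H4 gene, had its highest value in regrowth, at 0.908 FPKM there against 0.393 in vehicle tumors, as did the linker histone gene Hist1h1d, with 0.800 FPKM in regrowth against 0.402 in vehicle. Hist1h3d, the most abundant H3 gene, stood at 0.301, 0.924, 0.759, 0.249 and 0.331 FPKM in vehicle, 2-cycle, 4-cycle, 7-cycle and regrowth tumors, and thus was high after 2 and 4 cycles only. Hist1h3g, also an H3 gene, had 0.254, 0.628, 0.657, 0.305 and 0.509 FPKM in the same order. Hist1h3c, another H3 gene, stood apart with 0.921 FPKM after 7 cycles and 0.284 to 0.472 FPKM in the other groups.

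Taking the limit down to a mean of 0.3 FPKM brought 23 members and 13324 genes into the comparisons. Hist1h3d and Hist1h3g were then called higher with Hist1h4h after 2 cycles (3 of 23, background 3.67% higher, with 0 lower against 1.12%) and after 4 cycles (3 of 23, background 4.27% higher, with 0 lower against 2.09%), and Hist1h3c with Hist1h4h after 7 cycles (2 of 23, background 5.16% higher, with 0 lower against 3.56%). Hist1h4d, at 1.03, was the only member called in regrowth over vehicle (1 of 23, background 2.16% higher, with 0 lower against 2.84%). The 4 members called lower in regrowth compared with 4 cycles were those named above (4 of 23, background 4.7% lower, with 0 higher against 1.27%). The median of the 23 in that comparison was -0.40, and 14 of 23 lay below 0. In regrowth over 7 cycles 0 of 23 were called (background 1.25% higher and 3.46% lower), and between 7 and 2 cycles Hist1h3c was called higher, at 1.09, and Hist1h3d lower, at -1.55 (background 2.69% higher and 3.74% lower). Values this low rest on few fragments, and the table gives no depth to say how many.

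**Figure D3:**
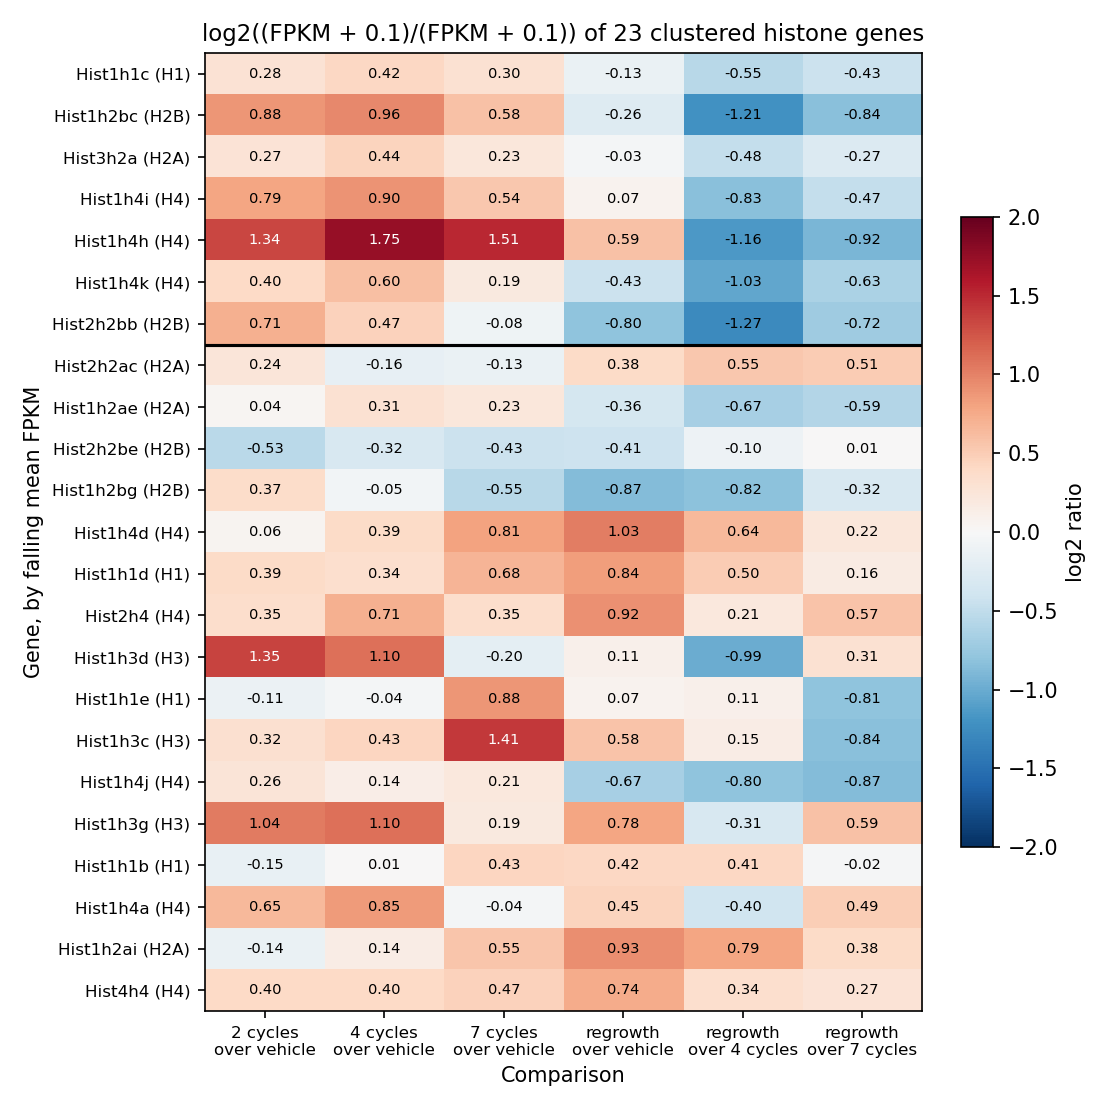
Log2 ratios, with 0.1 added to each FPKM, of the 23 members with a mean of at least 0.3 FPKM (rows, by falling mean) in 6 comparisons (columns), with red for higher and blue for lower in the group named first. Above the black line, the 7 members with a mean of at least 1 FPKM are all red after 2 and 4 cycles over vehicle and all blue in regrowth over 4 cycles, while the 16 below it are mixed, as with Hist1h3d at 1.35 after 2 cycles and -0.20 after 7 cycles.

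Summed over the 68 members, FPKM came to 48.8 in vehicle tumors, 69.0 after 2 cycles, 74.0 after 4 cycles, 64.2 after 7 cycles and 48.7 in regrowth, which is 1.41, 1.52, 1.32 and 0.998 times vehicle. Hist1h1c, Hist1h2bc, Hist3h2a and Hist1h4i made up 66.1% to 72.4% of the sum in every group. The 61 members with means below 1 FPKM summed to 11.1 FPKM in vehicle, 14.3, 14.4 and 14.0 FPKM after 2, 4 and 7 cycles, and 13.9 FPKM in regrowth. Their sum was thus above vehicle in regrowth, unlike that of the 7.

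By class, H4 had the widest difference over vehicle, with a sum of 15.8 FPKM after 4 cycles against 8.25 FPKM in vehicle tumors, 1.92 times as much. H3 was next, with 3.15 FPKM after 4 cycles against 1.80 FPKM in vehicle (a ratio of 1.75), and then H2B, with 19.1 against 11.2 FPKM (a ratio of 1.70). H2B was also the class with the lowest regrowth value relative to 4 cycles, at 8.84 FPKM in regrowth against 19.1, a ratio of 0.463. Without Hist1h2bc that ratio was 0.578. H1, nearly all of it Hist1h1c, came to 22.9 FPKM after 4 cycles against 17.3 in vehicle, and the other 5 H1 genes together to 1.29 against 1.17. H2A differed least, with 13.0 FPKM after 4 cycles against 10.2 in vehicle.

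**Figure D4:**
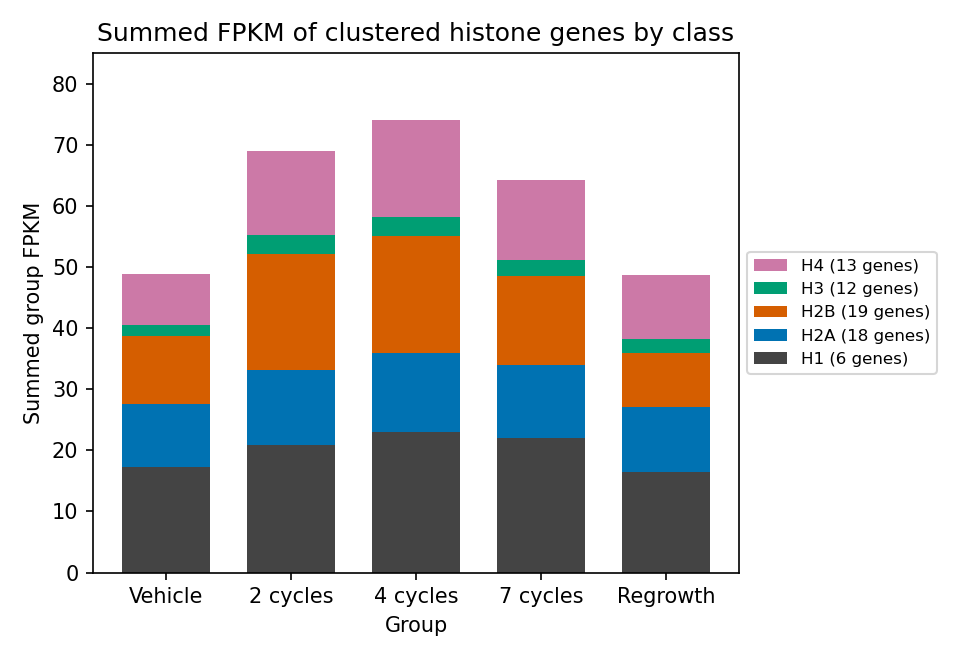
Summed group FPKM of the 68 members, stacked by histone class, in vehicle, 2-cycle, 4-cycle, 7-cycle and regrowth tumors, with 1 value per group and so no error bars. The stack is highest after 4 cycles, at 74.0 FPKM, and vehicle and regrowth are nearly level at 48.8 and 48.7, with H1 the thickest layer in 5 of 5 groups and H3 the thinnest.

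The position of the genes was set beside their levels, which FPKM puts on a per-length scale. Members with a single mapping interval, and Hist1h2bc, were searched for neighbors on opposite strands. In 10 places among them an H2A and an H2B gene started within 500 bases of each other. This head-to-head layout is typical of these clusters, and the space between is shared as a promoter. Pairs with other members of several intervals, such as Hist1h2an with Hist1h2bp, were not counted. Measured levels within a pair could be very unequal. Hist1h2bc had a mean of 10.6 FPKM and Hist1h2ac, 239 bases away, 0.151 FPKM, a ratio of 70.3. The groups did not overlap either, since Hist1h2ac reached at most 0.362 FPKM. The counted models are unlike, however. That of Hist1h2bc spans 8283 bases in mm9 over 2 intervals, and that of Hist1h2ac 488, against 2482 bases in its GENCODE transcript. Much of Hist1h2ac was thus not measured, and per-length scaling does not make up for it. Hist3h2a stood at 8.06 FPKM and its partner Hist3h2bb-ps, a pseudogene by name, at 0.0360 FPKM. Other pairs were close, as with Hist1h2ae and Hist1h2bg at 0.720 and 0.696 FPKM and Hist2h2ac and Hist2h2be at 0.789 and 0.714 FPKM. Alike means did not bring alike courses, since Hist1h2bg was highest after 2 cycles and Hist1h2ae after 4.

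Promoters were examined because the abundant members moved together while belonging to different classes. RefSeq promoter sequences (GRCm38.p6), from 250 bases before to 50 after the start site, were found for 61 of the 68 members. They were searched on both strands for the CCAAT box (CCAAT), the TATA box (TATANA), the octamer bound by Oct-1 (ATGCAAAT) and the GC box bound by Sp1 (GGGCGG), and matches of different motifs overlapped in 1 member. CCAAT was present in all 6 H1, 17 H2A, 16 H2B and 10 H3 promoters and in 3 of 12 H4 promoters, against 37.4% of 32851 promoters in all. The octamer was found in 7 of 17 H2A and 7 of 16 H2B promoters and in none of the H1, H3 or H4 promoters, against 1.74% in all. Promoters of head-to-head partners can overlap, so that the same match may be counted in both classes, as for Hist1h2ae and Hist1h2bg, which both have the octamer. TATANA was found in 49 of 61 (24.7% in all), and GGGCGG in 24 of 61 (35.7% in all), of which 9 were H4. Different layouts among the abundant members are shown by the 120 bases before the start site, with motif matches in capitals:
Hist1h1c: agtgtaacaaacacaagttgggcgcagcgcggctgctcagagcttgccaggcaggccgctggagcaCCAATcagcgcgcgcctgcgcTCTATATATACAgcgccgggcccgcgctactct
Hist2h2bb: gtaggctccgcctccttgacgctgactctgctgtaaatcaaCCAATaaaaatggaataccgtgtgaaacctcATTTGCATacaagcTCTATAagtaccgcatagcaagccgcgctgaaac
Hist1h4h: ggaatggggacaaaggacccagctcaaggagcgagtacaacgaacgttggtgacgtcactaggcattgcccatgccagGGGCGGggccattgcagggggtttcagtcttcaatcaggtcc

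They lie at chr13:23738687-23738806 (Hist1h1c), chr3:96269580-96269699 (Hist2h2bb) and chr13:23530924-23531043 (Hist1h4h), all on the plus strand of GRCm38.p6. Hist1h1c shows a CCAAT box and a TATA box, and Hist1h4h a GC box alone. Hist2h2bb shows a CCAAT box, with TATANA and the octamer both matched on the reverse strand only. Hist2h2bb and Hist1h4h were both higher after 2 and 4 cycles than in vehicle, and both lower in regrowth than after 4 cycles. A link between motifs and course was not tested.

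The genes that serve these members were taken from lists of related function. None of the genes on the 6 lists that had a mean of at least 1 FPKM passed 2-fold in any of the 7 comparisons: 9 of 11 replication-independent histone variants had such a mean, as did 8 of 8 genes of histone gene transcription, 16 of 17 of histone mRNA 3′ processing and decay, 18 of 19 histone chaperones, 25 of 25 S phase genes and 8 of 8 mitosis genes. The messages of most genes on the list of replication-independent variants are polyadenylated. H3f3b, H3f3a, H2afz and H1f0, with means of 300, 181, 155 and 97.3 FPKM, were far more abundant than any clustered gene. The highest of those was Hist1h1c, at 18.4 FPKM. H2afj, with a mean of 16.4 FPKM, H2afy2 and H1fx lay below Hist1h1c. H3f3b, which encodes H3.3, stood at 286, 248, 269, 343 and 357 FPKM in vehicle, 2-cycle, 4-cycle, 7-cycle and regrowth tumors, and H3f3a, which encodes the same protein, at 168, 152, 186, 195 and 207 FPKM. H2afz, which encodes H2A.Z, stood at 137, 151, 165, 172 and 149 FPKM in that order.

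These variants were split in their course. Their median log2 ratio in regrowth over 4 cycles was 0.10, and 5 of 9 lay above 0. The other 4, H2afx, Cenpa, H2afz and H2afy, were lower in regrowth than after 4 cycles, by log2 ratios of -0.37, -0.29, -0.14 and -0.07, and were higher than vehicle after 2 and 4 cycles. Of the 5 above 0, H2afv and H2afj were also higher than vehicle after 2 cycles, by 0.18 and 0.32, and after 4, by 0.30 and 0.45. H2afx, which encodes the H2A.X that is phosphorylated at DNA breaks, was higher in the 3 groups under treatment than in vehicle or regrowth, at 25.9, 35.1, 33.1, 32.7 and 25.6 FPKM. Cenpa, the centromeric H3 variant, stood at 25.4, 33.9, 32.8, 33.9 and 26.7 FPKM. The linker variant H1f0, known for rising in cells that leave the cycle, had 108, 83.5, 87.0, 109 and 98.3 FPKM, with its lowest values where Hist1h1c was high after 2 and 4 cycles, though it was high after 7. H2afy had 31.0, 36.3, 38.3, 39.5 and 36.5 FPKM, H2afv 17.7, 20.1, 21.8, 26.4 and 28.4, and H2afj 12.2, 15.2, 16.7, 20.2 and 17.9, while H2afy2 and H1fx had means of 0.219 and 0.758 FPKM.

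The factors of histone gene expression all stayed within 2-fold. Slbp, which binds the stem-loop, stood at 19.7, 19.1, 22.3, 21.8 and 23.9 FPKM in vehicle, 2-cycle, 4-cycle, 7-cycle and regrowth tumors, and was thus highest in regrowth, where the abundant members were low. Npat, the coactivator of clustered histone transcription, stood at 2.51, 2.31, 2.32, 2.21 and 2.08 FPKM, and Casp8ap2, a component of the histone locus body also known as FLASH, at 1.99, 2.21, 2.16, 1.65 and 1.54 FPKM. Ccne1, the cyclin that with Cdk2 drives Npat, was higher in the 3 groups under treatment than in vehicle or regrowth, at 1.76, 2.95, 2.80, 2.35 and 1.61 FPKM. Cdk2 itself was lower in those groups than in vehicle or regrowth, at 11.0, 9.69, 9.54, 8.71 and 11.6 FPKM. The 8 genes of histone gene transcription had median log2 ratios over vehicle of 0.01, -0.10 and -0.29 after 2, 4 and 7 cycles. The median of the 16 processing and decay genes in regrowth over 4 cycles was -0.14. Of the chaperones, Daxx, which deposits H3.3 with Atrx, stood at 6.17, 10.4, 10.2, 8.81 and 5.96 FPKM, the largest difference over vehicle on its list, with log2 ratios of 0.74 and 0.72 after 2 and 4 cycles.

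S phase and mitosis genes had medians nearer to 0 than the abundant members after 2 and 4 cycles, and in regrowth over 4 and over 7 cycles, on the same side of 0. After 4 cycles, S phase genes had a median log2 ratio over vehicle of 0.15 and mitosis genes of 0.24, against 0.60 for the 7 members. In regrowth over 4 cycles the medians were -0.38 (25 of 25 below 0), -0.53 (8 of 8 below 0) and -1.03. In regrowth over vehicle, the medians were -0.22 for S phase genes, -0.35 for mitosis genes and -0.13 for the 7 members. Aurka, a mitotic kinase, stood at 8.36, 13.9, 15.1, 12.3 and 7.95 FPKM, and Rrm2, a subunit of ribonucleotide reductase, at 13.1, 18.6, 16.4, 10.2 and 8.94 FPKM, in vehicle, 2-cycle, 4-cycle, 7-cycle and regrowth tumors.

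**Figure D5:**
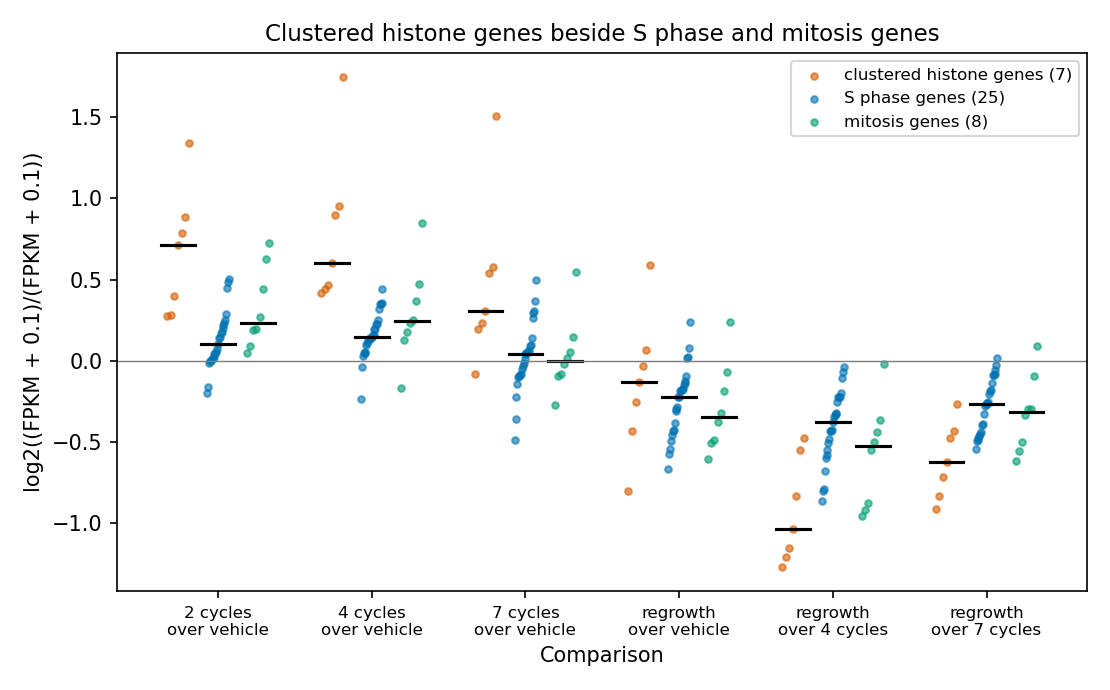
Log2 ratios, with 0.1 added to each FPKM, of the 7 clustered histone genes, 25 S phase genes and 8 mitosis genes with a mean of at least 1 FPKM in 6 comparisons, with 1 point per gene and a black bar at each median. In regrowth over 4 cycles the medians are -1.03, -0.38 and -0.53, and after 4 cycles over vehicle 0.60, 0.15 and 0.24.

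Markers of other cells in the tumor also differed between the groups. The 4 macrophage genes found summed to 67.8, 81.9, 85.8, 45.5 and 40.6 FPKM in vehicle, 2-cycle, 4-cycle, 7-cycle and regrowth tumors, with a higher sum after 2 and 4 cycles. That difference came from Cd68, at 18.1, 31.0, 31.4, 16.9 and 12.4 FPKM, and Emr1, at 6.23, 9.12, 10.8, 5.57 and 4.87 FPKM. Csf1r, at 27.9, 28.3, 28.0, 14.6 and 15.1 FPKM, and Mrc1, at 15.6, 13.4, 15.5, 8.39 and 8.28 FPKM, were level with or below vehicle after 2 and 4 cycles. Markers of granulocyte precursors (9 genes) summed to 3.77, 44.9, 68.6, 101 and 4.46 FPKM, and erythroid markers (8 genes) to 47.4, 127, 151, 195 and 42.1 FPKM, both sums highest after 7 cycles and near vehicle in regrowth. Most of the erythroid sum was Hba-a1, Hba-a2 and Hbb-b1. Hbb-b2 was below vehicle in every CPA group, at 0.365, 0.241, 0.162, 0.261 and 0.0945 FPKM. Alas2, at 0.532, 1.48, 1.99, 1.78 and 0.169 FPKM, was highest after 4 cycles and below vehicle in regrowth. Klf1 and Slc4a1, both low, were highest after 4 and 2 cycles. The 5 T cell genes summed to 3.58, 8.52, 5.98, 4.23 and 5.89 FPKM. After 7 cycles Cd3e, at 0.743 against 0.986 FPKM, and Cd4, at 0.253 against 0.608 FPKM, were below vehicle, unlike the sum. The 6 fibroblast genes summed to 984, 609, 432, 279 and 393 FPKM, most of it Col1a1, Col1a2 and Col3a1. Dcn went the other way under treatment, at 24.3, 27.6, 32.9, 39.0 and 21.6 FPKM, and Lum was at 14.9 FPKM in vehicle and 15.7 in regrowth. The 5 skeletal muscle genes summed to 52.2, 17.7, 3.02, 333 and 18.4 FPKM. Of the B lineage, Cd79a stood at 1.54, 0.562, 0.177, 0.135 and 4.24 FPKM and Cd79b, its partner in the B cell receptor, at 1.35, 0.839, 0.289, 0.303 and 3.82 FPKM, both lowest after 4 and 7 cycles and highest in regrowth. The 3 endothelial genes summed to 23.9, 27.1, 18.0, 13.6 and 22.6 FPKM. The 3 adipocyte genes summed to 30.4, 69.5, 59.6, 71.5 and 48.5 FPKM, most of it Fabp4, at 28.7, 61.1, 53.6, 66.2 and 47.1 FPKM, which stayed above vehicle in regrowth, unlike Adipoq, at 1.29, 5.87, 4.45, 4.04 and 1.20 FPKM. The part of these cells in the histone values was not tested.

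Near-identical copies limit how far a single member can be read. Of 68 members, 58 shared at least 1 stretch of 100 bases with another member, and in 24 at least 50% of such stretches were shared. Among the abundant ones, 0% of stretches were shared in Hist3h2a and Hist2h2bb, 5.07% in Hist1h1c, 15.1% in Hist1h4i, 25.4% in Hist1h2bc, 38.5% in Hist1h4h and 64.3% in Hist1h4k. These shares come from GENCODE transcripts of unlike extent, not from the mm9 models that were counted. The Hist1h4k transcript has 312 bases and stops at the stop codon, while that of Hist1h4h has 470 and that of Hist1h4i 727. The shares thus do not rank the 7 by certainty. In addition, 10 members had a mapping interval in common with another member in the table, all with means under 0.3 FPKM.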

How the data were processed

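Strand-specific libraries were prepared by the authors from poly(A)-selected tumor RNA. The submitters' processing notes list mm9 as the build and TopHat2, featureCounts and edgeR as tools, and versions of these were not given in the sources used here. For every gene, the authors deposited a single FPKM value per group. The table repeats the vehicle value 3 times more, and its 12 columns of ratios, fold changes and p-values from the authors' own comparisons were not used. Of 24197 lines, 27 with a date in place of a symbol were left out. Table coordinates are mm9 and sequences GRCm38, and no coordinate was converted between the builds. The head-to-head pairs combined mm9 positions with strands from the GRCm38 annotation.

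Group FPKM values were compared as log2((FPKM + 0.1)/(FPKM + 0.1)), on which changes of low genes come out too small, in 7 comparisons (Python 3.11.15, pandas 2.3.3, numpy 2.4.6). The planned tests across libraries could not be run on group values, and the fold rule was used alone. Members with a mean of at least 1 FPKM were all named, as were others by the fixed rule of reaching 1 FPKM. Those of 0.3 to 1 FPKM were chosen after their values were seen, as were Aurka, Rrm2, Ccne1 and Daxx. The members and lists were chosen with earlier results of these data known. A B lineage marker is not reported here. Of the lists, Supt16h and Adgre1 were not found by symbol (the older Emr1 was).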

Additional observations from a re-analysis of the deposited data

How the results depend on the processing

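Of 342 values of single members recomputed, 322 stayed on their side of the limit, 6 lost the call, 14 gained it under the 1.5-fold limit and 0 called ones changed sign. Of 98 counts, 71 stayed within 1.5 times. With a pseudocount of 1, there were 0 members higher after 2 and 7 cycles (1.8% and 2.55% of all genes) and 1 lower in regrowth over 4 cycles (2.24%). With a mean of at least 0.3 FPKM, 3, 3 and 2 were higher after 2, 4 and 7 cycles, 1 was higher in regrowth over vehicle, and 1 was higher and 1 lower between 7 and 2 cycles. The median in regrowth over vehicle was then 0.11, the reverse of -0.13. With no filter, 8, 5, 5 and 3 of 68 were higher over vehicle after 2, 4 and 7 cycles and in regrowth (2.97%, 3.32%, 4.17% and 1.82% of all genes), and 1, 1 and 2 were lower after 2 and 7 cycles and in regrowth (1.03%, 2.71% and 2.21%). Without a filter, regrowth over 4 cycles had 4 higher (1.19%) and 6 lower (3.4%), regrowth over 7 cycles 1 higher (1.27%) and 4 lower (3.07%), and 7 over 2 cycles 2 higher (2.51%) and 2 lower (2.97%). Past 1.5-fold, 4 of 7 were higher after 2 and after 4 cycles (6.72% and 7.83% of all genes), 1 higher and 1 lower in regrowth over vehicle (6.79% and 7.77%), 4 lower in regrowth over 7 cycles (5.6%) and 1 lower between 7 and 2 cycles (10.1%). Without the most abundant gene of a class, summed ratios turned for H1 in regrowth over vehicle (1.44) and over 4 cycles (1.31), for H2A in regrowth over 4 cycles (1.08), for H2B after 7 cycles over vehicle (0.870), and between 7 and 2 cycles for H2A (1.03), H3 (1.13) and H4 (1.06). For H2B in regrowth over 4 cycles the ratio was 0.578.

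No paired analysis was possible because the table gives 1 value per group. For the same reason leaving out each library in turn was not run. The table gives no depth and the library statistics of the study were not used here, so no interval was computed. Fragments beyond the mm9 gene models do not enter the FPKM, and where a model ends near the stem-loop the polyadenylated extension is not measured.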
